A study of Mus musculus with 4 samples.

Results

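The genes described here are 40 mouse genes of protein folding in the endoplasmic reticulum (ER) and of the unfolded protein response (UPR), followed in MC38 cells with and without a guide against Cbfb. They were taken by gene symbol. All 40 are among the 26322 genes listed in the table, and all 40 passed the filter on low values that left 12207 genes for testing. By role they comprise 5 UPR sensors or factors, 2 lectin chaperones, 6 disulfide isomerases, 6 other folding factors, 9 genes of ER-associated degradation (ERAD), 7 genes of the translocon and its TRAP partner, and 5 genes of signal peptidase. Heat-shock and Dnaj genes were kept apart and are summarised at the end with the other genes of the pathway.

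MC38 is a mouse colon cancer cell line. The WT group (2 libraries) was electroporated with Cas9 and a non-targeting guide, and the CbfbKO group (2 libraries) with Cas9 and a Cbfb guide, and RNA was taken from both at least 1 week later. A further replicate per group was left out by the submitters for poor RNA, and the sources do not say whether the libraries came from separate cultures or from how many clones, so p-values measure only the spread between these libraries. The comparison asks what changed in the RNA of tumour cells that had lost CBFβ, the partner of the RUNX transcription factors.

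Proteins bound for the cell surface or for secretion enter the ER through the SEC61 channel, lose their signal peptide, receive sugars and are folded by chaperones and disulfide isomerases. Chains that fail to fold are drawn back into the cytosol and degraded, which is ERAD. When unfolded chains build up, the sensors IRE1α, PERK and ATF6 are activated. Through the factors XBP1, ATF4 and cleaved ATF6 they raise the genes of all these steps, so that the mRNA of chaperones such as calreticulin and of ERAD genes such as Herpud1 is a common readout of ER stress. Sensors are switched on at the protein level, by phosphorylation or cleavage, and Xbp1 mRNA by removal of a short stretch in its coding region. A count of reads per gene from the 3′ end shows none of these switches, only the amount of each mRNA.

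The libraries held between 3189035 and 3907936 reads on genes, so that 1 read was worth between 0.256 and 0.314 CPM, the usual unit that scales the reads of a gene to a common library total. Cbfb itself had 295 and 285 reads in WT and 125 and 125 in CbfbKO, a log2 fold change of -1.27 (standard error, SE, of 0.12, limma adjusted p = 1.76e-07, past the threshold of 0.05 in 8 of 12 alternative settings). Without CbfbKO replicate 1 it was -1.12, and without CbfbKO replicate 2 it was -1.41. In both of these settings, and without a trend of variance on level, no gene at all was called. The loss of the call there says nothing about Cbfb. Ribosomal RNA of Rn45s made up 13.9% and 13.1% of all reads in WT and 11.3% and 13.0% in CbfbKO, which enters every value scaled to the library total. Of 11 markers of colon epithelium, Krt18, Cdx1, Vil1 and Muc2 had no read in any library, the highest count was 4 reads (Krt8), and the summed level of all 11 was between 1.77 and 2.20 CPM, so the labelled origin of the line was not visible in these markers. Of 5 mesenchymal markers, Vim had 8078 and 8437 reads in WT and 8669 and 6737 in CbfbKO (log2 fold change -0.18, limma adjusted p = 0.0538), Cdh2 had between 84 and 119, Col1a1 between 8 and 13, and Col1a2 and Acta2 at most 2. Summed markers of leukocytes and of endothelium were at most 1.54 CPM in every library. Those of plasma cells were at 38.9 and 39.0 CPM in WT and 52.7 and 50.2 in CbfbKO, all from Sdc1 (log2 fold change 0.40, limma adjusted p = 0.0989), with Jchain, Mzb1 and Ighm at 0 reads. The part of these marker differences in the results was not tested. In bulk RNA of this kind, fewer cells with a transcript and less of it per cell cannot be told apart.

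None of the 40 genes passed the test between CbfbKO and WT (0 higher and 0 lower at an adjusted p-value under 0.05, limma with a trend of variance on level, Benjamini-Hochberg adjusted over all 12207 genes). Over all tested genes 2.83% did, 345 genes, of which 192 were higher and 153 lower, and with voom and median-ratio scaling that split was 175 higher and 236 lower. At so low a share, a count of 0 in a list of this length does not set these genes apart. At an unadjusted p-value under 0.05 there were 5 of the 40, or 12.5%, with Atf6b and Spcs1 higher and Atf6, Ssr3 and Spcs3 lower. The share over all tested genes was 14.9%. Voom on the recovered reads brought 1 of the 40 past the adjusted threshold under either scaling, Atf6b with library totals and Ssr3 with median ratios. Over all 12207 tested genes, voom called 258 higher and 196 lower with library totals, and 175 and 236 with median ratios. In 15 of the 40 (37.5%) both CbfbKO libraries lay on the same side of both WT libraries, 10 above and 5 below, against 44.1% of all tested genes.

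**Figure D1:**
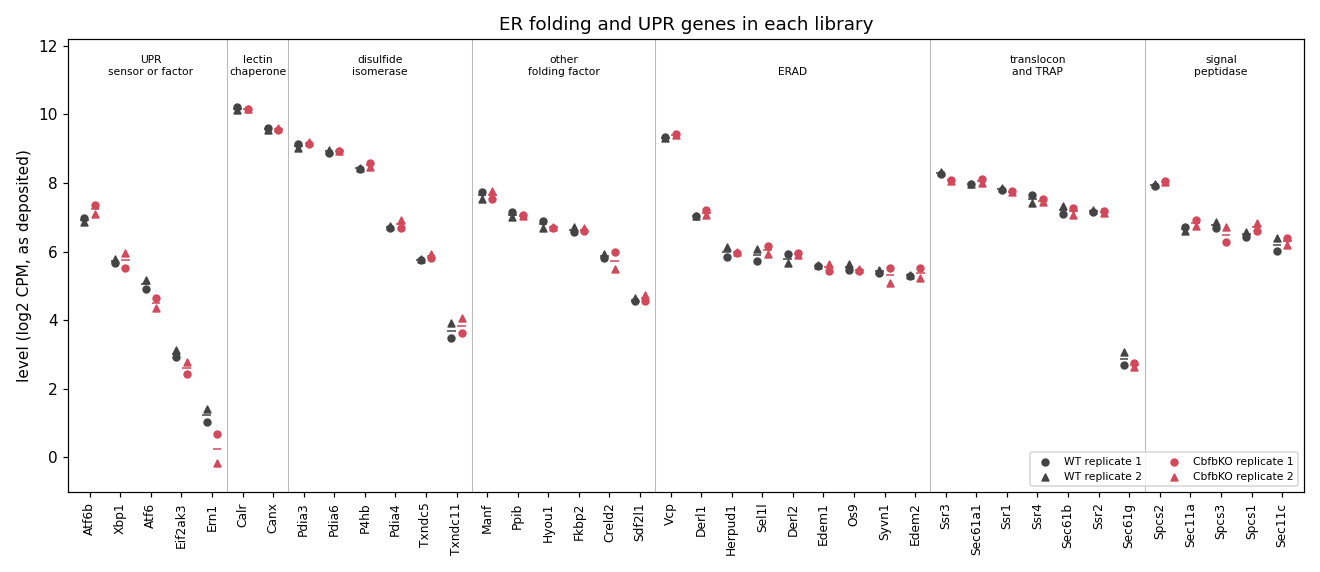
Level of each of the 40 genes in log2 CPM as deposited (vertical axis) by gene, grouped by role and sorted by level within the role; dark grey marks are the 2 WT and red marks the 2 CbfbKO libraries, circles replicate 1, triangles replicate 2, and short lines the group means (n = 2). The groups lie close together for the abundant genes, from Calr near 10.16 downwards, and spread apart for Ern1 and Eif2ak3, which have the fewest reads among the sensors.

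The sizes of the differences were small as well as uncalled. The median log2 fold change of the 40 genes was 0.0057, with 22 positive and 18 negative values. Over all 12207 tested genes the median was 0.039, with 6958 positive and 5249 negative values. The members' median was -0.034 in voom with median ratios and -0.014 without WT replicate 1, and without WT replicate 2 it was 0.045, above the 0.039 of all genes in that setting. In 21 of the 40 genes the sign turned when 1 of the 4 libraries was left out, among them all 6 other folding factors and both lectin chaperones. These genes are mostly abundant, and 34 of them had a mean of at least 100 reads. Their median absolute log2 fold change was 0.091, and that of all 5128 tested genes with as many reads was 0.10. For 35 of the 40 genes the whole 95% interval of the fold change lay within 1.5-fold of no change in either direction, and for 21 of them it lay within 1.25-fold. Atf6, Ern1, Eif2ak3, Txndc11 and Sec61g had wider or more distant intervals, and only for Ern1 and Eif2ak3 did the interval reach a 2-fold change.

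As a share of the library, the 40 genes together took 7319 and 7263 CPM in WT and 7440 and 7387 CPM in CbfbKO. Both CbfbKO sums were higher, by a ratio of means of 1.02. The order was not kept when the ribosomal RNA was taken out of the totals. With Rn45s left out, which was added once the data had been seen, the sums were 8503 and 8363 CPM in WT and 8391 and 8494 in CbfbKO, a ratio of 1.00, and the groups overlapped. Calr, Canx, Vcp, Pdia3 and Pdia6 alone gave between 3500 and 3661 CPM of the sum in every library.

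**Figure D2:**
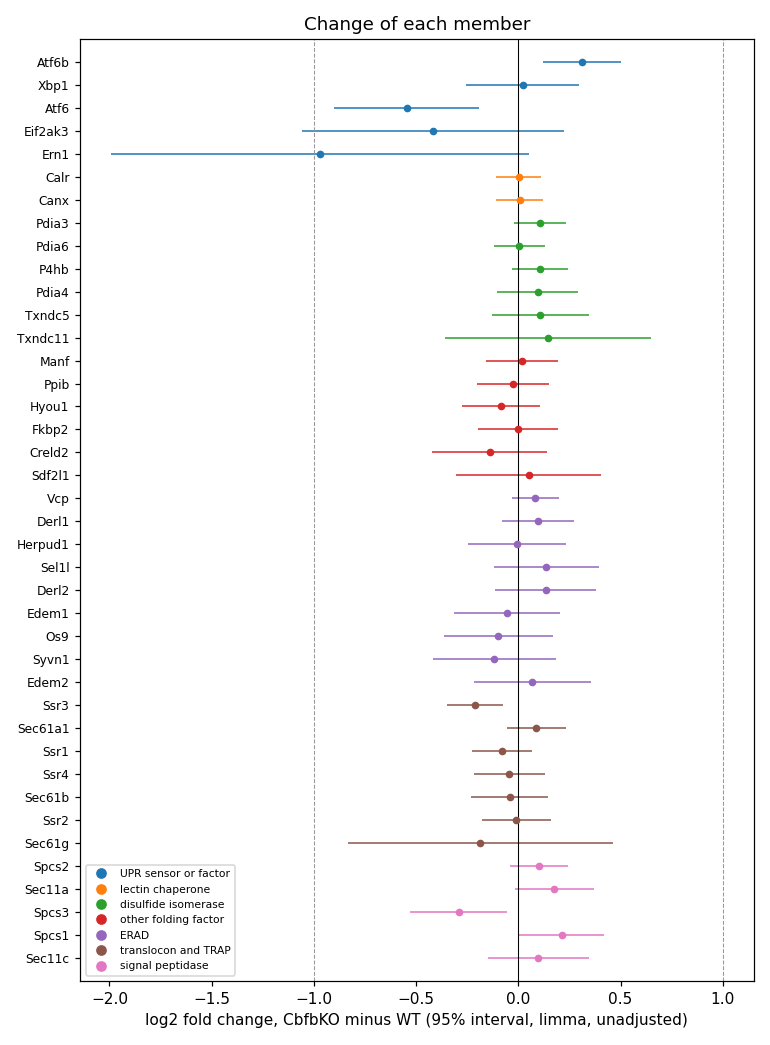
Log2 fold change of each gene, CbfbKO minus WT (horizontal axis), with its unadjusted 95% interval from limma (n = 2 against 2), coloured by role; dashed lines mark a 2-fold change. Most intervals span 0, those of Atf6b and Spcs1 lie above it and those of Atf6, Ssr3 and Spcs3 below it, and the interval of Ern1 reaches from -1.99 to 0.051.

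Part of this gene set carries the ER stress response element (ERSE) in its promoters, the site through which ATF6 and XBP1 act together with the factor NF-Y. The windows searched were the RefSeq promoters of GRCm38.p6, 250 bases before to 50 after each gene start, and 32 of the 40 genes had one. The 8 without a window, which could not be searched, were Ssr2, Hyou1, Atf6, Sec61a1, Derl1, Sec11c, Manf and Spcs3. In 28 of the 32 windows the bases after the start occurred in a transcript of the gene. The motif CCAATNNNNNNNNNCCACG, searched on both strands, was present in 5 of these 32 (15.6%) and in 37 of all 27025 genes with a window (0.137%). The related ERSE-II, ATTGGNCCACG, which shares its last letters with the first motif, was present in 1 of the 32 (Herpud1, 3.12%) and in 0.0444% of all genes. The 6 sites are shown because ERSE and ERSE-II are the elements of the response that were searched for. Each line gives the motif in capitals with up to 40 bases on each side, 5′ to 3′ on the strand of the gene, and in Calr and Creld2 the motif reads on the opposite strand.
Calr (chr8:84847035-84847133, minus strand): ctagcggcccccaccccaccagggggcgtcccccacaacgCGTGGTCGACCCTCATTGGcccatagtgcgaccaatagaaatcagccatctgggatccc
Canx (chr11:50325760-50325858, minus strand): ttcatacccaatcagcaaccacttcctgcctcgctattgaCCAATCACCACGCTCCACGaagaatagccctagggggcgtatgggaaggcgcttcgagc
Creld2 (chr15:88819480-88819578, plus strand): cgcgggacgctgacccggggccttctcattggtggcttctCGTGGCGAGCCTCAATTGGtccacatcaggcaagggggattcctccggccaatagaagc
Pdia6 (chr12:17266451-17266549, plus strand): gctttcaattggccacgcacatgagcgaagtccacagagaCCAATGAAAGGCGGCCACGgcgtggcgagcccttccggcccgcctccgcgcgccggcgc
Syvn1 (chr19:6046492-6046590, plus strand): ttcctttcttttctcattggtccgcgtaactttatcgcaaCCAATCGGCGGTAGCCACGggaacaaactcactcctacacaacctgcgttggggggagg
Herpud1 (chr8:94386337-94386427, plus strand): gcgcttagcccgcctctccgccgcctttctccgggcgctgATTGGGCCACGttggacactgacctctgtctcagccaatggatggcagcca

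The motif began between 162 bases (Calr) and 44 bases (Syvn1) before the gene start. In the expression data the 6 genes had log2 fold changes from -0.14 (Creld2) to 0.0066 (Canx), with a median of -0.0028, and in 0 of the 6 did the libraries of the groups fail to overlap, against 44.1% of all tested genes. The 26 genes with a window and neither motif had a median of 0.060 and a range from -0.97 to 0.31, and in 12 of them (46.2%) the groups did not overlap. The difference between these sets was not tested. A missing match says only that these letters do not stand in this window.

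In 4 of the 5 UPR sensors or factors the libraries of the groups did not overlap (1 higher, 3 lower), against 44.1% of all tested genes, and 0 of 5 passed the test, against 2.83%. Among them, Atf6 and its paralog Atf6b differed in opposite directions, both short of the threshold. ATF6 is a membrane-bound transcription factor that is cut in the Golgi to free its active part. Its gene (chromosome 1, 170704674 to 170867771, minus strand, GRCm38) had 100 and 119 reads in WT and 96 and 63 in CbfbKO. The levels were 4.91 and 5.18 log2 CPM in WT and 4.65 and 4.35 in CbfbKO. Both CbfbKO libraries were lower than both WT libraries, by a log2 fold change of -0.55 (SE 0.17, 95% interval from -0.90 to -0.19, limma adjusted p = 0.0945). The interval of the fold runs from 0.536 to 0.876 of the WT level.

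Atf6b, which encodes a second factor of the same build that is known as a weaker activator, lies on chromosome 17 (34647146 to 34655074, plus strand). It had 425 and 386 reads in WT and 637 and 437 in CbfbKO. Its levels were 6.97 and 6.86 log2 CPM in WT and 7.35 and 7.10 in CbfbKO, with both CbfbKO libraries above both WT libraries. The log2 fold change was 0.31 (SE 0.091, 95% interval from 0.12 to 0.50, limma adjusted p = 0.0688). Both genes were close to the threshold and crossed it when fewer low genes were tested. With a minimum of 5 CPM the adjusted p from limma was 0.0407 for Atf6 and 0.0177 for Atf6b, and over all alternatives it ranged from 0.0379 to 0.828 for Atf6 and from 0.0177 to 0.928 for Atf6b. The direction of both was the same in all 12 alternatives, with Atf6b at 0.19 without CbfbKO replicate 1.

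Xbp1, whose spliced mRNA encodes the main factor downstream of IRE1α, lies on chromosome 11 (5520659 to 5525893, plus strand). It was at 5.66 and 5.79 log2 CPM in WT and at 5.54 and 5.96 in CbfbKO, so the WT libraries lay between the CbfbKO libraries. The log2 fold change was 0.021 (SE 0.13, 95% interval from -0.26 to 0.30, limma adjusted p = 0.966), which bounds the fold between 0.838 and 1.23. Its sign was negative with median centring, in voom with median ratios, and without WT replicate 1 or CbfbKO replicate 2.

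The genes of the other sensors had few reads and wide intervals. Ern1, which encodes IRE1α (chromosome 11, 106394650 to 106487852, minus strand), had 5 and 7 reads in WT and 4 and 1 in CbfbKO. Its log2 fold change was -0.97 (SE 0.49, limma adjusted p = 0.370), and its interval covers folds from 0.251 to 1.04. Eif2ak3, which encodes PERK (chromosome 6, 70844515 to 70905245, plus strand), had 24 and 27 reads in WT and 19 and 20 in CbfbKO. Its log2 fold change was -0.42 (SE 0.31, 95% interval from -1.06 to 0.23, limma adjusted p = 0.590). For both genes the CbfbKO libraries were the lower pair, the difference did not pass the test, and leaving out a CbfbKO library brought Ern1 to -0.55 (replicate 2) and Eif2ak3 to -0.25 (replicate 1). Exons of Eif2ak3 overlap an antisense gene, Gm43292.

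The lectin chaperones were the best measured members and had close levels in both groups. Calreticulin and calnexin hold newly made glycoproteins by their trimmed sugars until they are folded. Calr (chromosome 8, 84841850 to 84846934, minus strand), a gene with the ERSE shown above, had 3994 and 3718 reads in WT and 4500 and 3636 in CbfbKO. In log2 CPM this was 10.20 and 10.12 in WT and 10.17 and 10.16 in CbfbKO, with the CbfbKO libraries between the WT libraries. The log2 fold change was 0.0010 (SE 0.053), and its 95% interval bounds the fold between 0.928 and 1.08 (limma adjusted p = 0.995). Canx (chromosome 11, 50293961 to 50325673, minus strand) was at 9.59 and 9.54 log2 CPM in WT and at 9.54 and 9.60 in CbfbKO. Its log2 fold change was 0.0066 (SE 0.056, fold interval from 0.927 to 1.09, limma adjusted p = 0.978).

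Disulfide isomerases form and reshuffle the disulfide bonds of secreted proteins. All 6 had positive log2 fold changes, from 0.0047 for Pdia6 to 0.15 for Txndc11, as did 6958 of all 12207 tested genes. However, Pdia6 turned negative with median centring, quantile normalization and voom with median ratios, and Txndc11, Pdia6 or Pdia4 when single libraries were left out. The median was 0.10 (0.029 without CbfbKO replicate 2), and 0 of 6 passed the test (2.83% of all tested genes did) or had an unadjusted p-value under 0.05 in limma (14.9%). Their summed level was 1539 and 1533 CPM in WT and 1606 and 1627 in CbfbKO. Pdia3, which works with calnexin and calreticulin, went from 9.14 and 9.01 log2 CPM in WT to 9.15 and 9.21 in CbfbKO (log2 fold change 0.10, SE 0.061, limma adjusted p = 0.452). P4hb, the classical isomerase and a subunit of collagen prolyl hydroxylase, was at 8.42 and 8.43 log2 CPM in WT and at 8.59 and 8.47 in CbfbKO (log2 fold change 0.10, limma adjusted p = 0.498). In Pdia3, P4hb and Txndc5 both CbfbKO libraries lay above both WT libraries, and 44.1% of all tested genes had groups that did not overlap. Pdia6 (chromosome 12, 17266545 to 17284770, plus strand), which carries an ERSE, was at 8.87 and 8.96 log2 CPM in WT and 8.92 and 8.93 in CbfbKO, with an adjusted p of 0.983 from limma. Txndc11 (chromosome 16, 11074911 to 11134650, minus strand) had only 36 and 48 reads in WT and 46 and 51 in CbfbKO, and its interval covers folds from 0.779 to 1.57.

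The other folding factors include genes that are among the most responsive to ER stress in many cells. Hyou1 is a large ER chaperone of the Hsp70 family, Sdf2l1 and Manf are small ER proteins that bind the chaperone BiP or its clients, Creld2 is a stress-induced protein with isomerase motifs, and Ppib and Fkbp2 turn proline bonds. Of these 6, 0 passed the test or had an unadjusted p-value under 0.05 in limma, the log2 fold changes ran from -0.14 (Creld2) to 0.051 (Sdf2l1), and 0 had groups that did not overlap. Over all tested genes these shares were 2.83%, 14.9% and 44.1%. Sdf2l1 (chromosome 16, 17130138 to 17132383, minus strand) had 78 and 81 reads in WT and 90 and 83 in CbfbKO, that is 4.56 and 4.64 against 4.56 and 4.73 log2 CPM (SE of the difference 0.17, limma adjusted p = 0.932). Creld2 (chromosome 15, 88819646 to 88826683, plus strand) was at 5.81 and 5.94 log2 CPM in WT and at 5.98 and 5.50 in CbfbKO. Its CbfbKO libraries were the highest and the lowest of all, and without CbfbKO replicate 2 its log2 fold change turned from -0.14 to 0.10. Manf was at 7.73 and 7.55 log2 CPM in WT and 7.54 and 7.77 in CbfbKO, and Hyou1 at 6.88 and 6.70 in WT and 6.70 and 6.71 in CbfbKO.

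Of the 9 ERAD genes 0 passed the test, against 2.83% of all tested genes, and 0 had an unadjusted p-value under 0.05 in limma, against 14.9%. There were 5 positive and 4 negative log2 fold changes with a median of 0.068, which was 0.0065 with quantile normalization, 0.021 without CbfbKO replicate 1 and -0.037 without WT replicate 1. SEL1L and the ubiquitin ligase SYVN1 (HRD1) form the core of the machinery. Sel1l (chromosome 12, 91806043 to 91849157, minus strand) had the largest value of the group, 0.14 on the log2 fold scale (SE 0.12, limma adjusted p = 0.682), with levels of 5.74 and 6.08 log2 CPM in WT and 6.15 and 5.94 in CbfbKO. Syvn1 (chromosome 19, 6046576 to 6053712, plus strand), with an ERSE close to its start, had the smallest, -0.12 (SE 0.15, limma adjusted p = 0.782). Its levels were 5.39 and 5.46 log2 CPM in WT and 5.52 and 5.09 in CbfbKO. Both signs turned when a single library was left out, Sel1l without WT replicate 1 (-0.037) and Syvn1 without CbfbKO replicate 2 (0.096).

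Herpud1, a scaffold of the same machinery and among the first genes raised by ER stress, had 193 and 231 reads in WT and 243 and 200 in CbfbKO. It was at 5.84 and 6.13 log2 CPM in WT and at 5.97 and 5.98 in CbfbKO, a log2 fold change of -0.0067 with a fold interval from 0.842 to 1.18. The mannosidase-like Edem1 and Edem2 and the lectin Os9, which sort misfolded glycoproteins, had log2 fold changes of -0.056, 0.068 and -0.098, and the signs of Edem1 and Edem2 turned without CbfbKO replicate 1. In Os9, WT replicate 1 (5.46 log2 CPM) lay between the CbfbKO libraries (5.42 and 5.50). Derl1 and Derl2, of the channel family, had log2 fold changes of 0.098 and 0.13. Derl1 was at 7.05 and 7.03 log2 CPM in WT and 7.21 and 7.06 in CbfbKO, where replicate 2 lay close to WT. Derl2 was at 5.92 and 5.67 in WT, where replicate 1 lay between the CbfbKO libraries (5.95 and 5.91). Vcp, the ATPase that pulls chains out of the membrane and also serves many other pathways, was the most abundant of the group, at 9.34 and 9.30 log2 CPM in WT and 9.42 and 9.38 in CbfbKO. Both of its CbfbKO libraries were higher, by 0.083 log2 units (SE 0.056, limma adjusted p = 0.537).

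In the entry pathway, 6 of the 7 genes of the translocon and of TRAP, the complex that helps chains into the channel, had negative log2 fold changes, under every scaling tried, but 5 of 7 without WT replicate 1 and 4 of 7 without WT replicate 2 or CbfbKO replicate 2. Over all 12207 tested genes 5249 values were negative in the test as reported. Of the 7, 0 passed the test, against 2.83% of all tested genes, and Ssr3 alone (14.3%) had an unadjusted p-value under 0.05 in limma, against 14.9%. Ssr3, the TRAP gamma subunit (chromosome 3, 65379655 to 65392623, minus strand), had 1041 and 1060 reads in WT and 1064 and 851 in CbfbKO. The levels were 8.26 and 8.31 log2 CPM in WT and 8.09 and 8.06 in CbfbKO, so that the groups did not overlap. The log2 fold change was -0.21 (SE 0.067, 95% interval from -0.35 to -0.074, limma adjusted p = 0.0955), which is a fold between 0.785 and 0.950. With each library centred on its median it was -0.23 and past the threshold (limma adjusted p = 0.0447), and over the alternatives the adjusted p ranged from 0.0172 to 0.551.

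The other TRAP subunits were nearer to 0 on the log2 fold scale, with -0.081 for Ssr1, -0.010 for Ssr2 and -0.044 for Ssr4. Sec61a1, the channel itself (chromosome 6, 88503579 to 88518905, minus strand), was at 7.97 and 7.98 log2 CPM in WT and 8.11 and 8.01 in CbfbKO. It had the only positive value of the group, 0.088 (SE 0.069, limma adjusted p = 0.617, from 0.040 without CbfbKO replicate 1 to 0.14 without CbfbKO replicate 2), and its exons overlap the antisense gene Gm44170. Sec61b was at 7.10 and 7.33 log2 CPM in WT and 7.28 and 7.07 in CbfbKO. Sec61g had 20 and 26 reads in WT and 24 and 18 in CbfbKO, too few to bound its fold more tightly than 0.561 to 1.38.

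Signal peptidase cuts the signal peptide from chains as they enter the ER, and 0 of its 5 genes passed the test, against 2.83% of all tested genes. The 2 genes with an unadjusted p-value under 0.05 in limma, against 14.9% of all tested genes, were Spcs1 and Spcs3. Spcs1 (chromosome 14, 30999826 to 31001672, minus strand) had 289 and 316 reads in WT and 375 and 360 in CbfbKO. Its levels were 6.42 and 6.57 log2 CPM in WT and 6.59 and 6.83 in CbfbKO, with the CbfbKO pair just above the WT pair (log2 fold change 0.21, SE 0.10, limma adjusted p = 0.325). With a library left out this value lay between 0.095 (without CbfbKO replicate 2) and 0.33 (without CbfbKO replicate 1), and it was 0.13 without WT replicate 1. Spcs3 (chromosome 8, 54520433 to 54529998, minus strand) had 349 and 388 reads in WT and 299 and 332 in CbfbKO. It was at 6.69 and 6.87 log2 CPM in WT and 6.27 and 6.71 in CbfbKO, so the groups overlapped (log2 fold change -0.29, SE 0.11, limma adjusted p = 0.206). Without CbfbKO replicate 1 the value of Spcs3 was -0.070, and without CbfbKO replicate 2 it was -0.51. Exons of Spcs1 overlap the antisense gene Glt8d1 and those of Spcs3 overlap Asb5, as do those of Pdia6 with Atp6v1c2, of Syvn1 with Mrpl49 and of Txndc11 with Snn. Exons of Pdia3, Txndc5, Manf, Ppib, Derl2, Vcp, Ssr2 and Sec11a also overlap antisense genes. Whether the counting used strand is not given in the sources used here. On the same strand, exons of Manf overlap Rbm15b, those of Sec11a overlap Nmb and those of Pdia4 overlap Mir704, which strand could not separate. Spcs2 and the catalytic subunits Sec11a and Sec11c had log2 fold changes of 0.099, 0.18 and 0.098 and adjusted p-values from 0.397 to 0.777 from limma. Sec11a was at 6.72 and 6.60 log2 CPM in WT and 6.92 and 6.75 in CbfbKO, where replicate 2 lay close to WT replicate 1. Sec11c turned negative without WT replicate 1 or CbfbKO replicate 1.

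**Figure D3:**
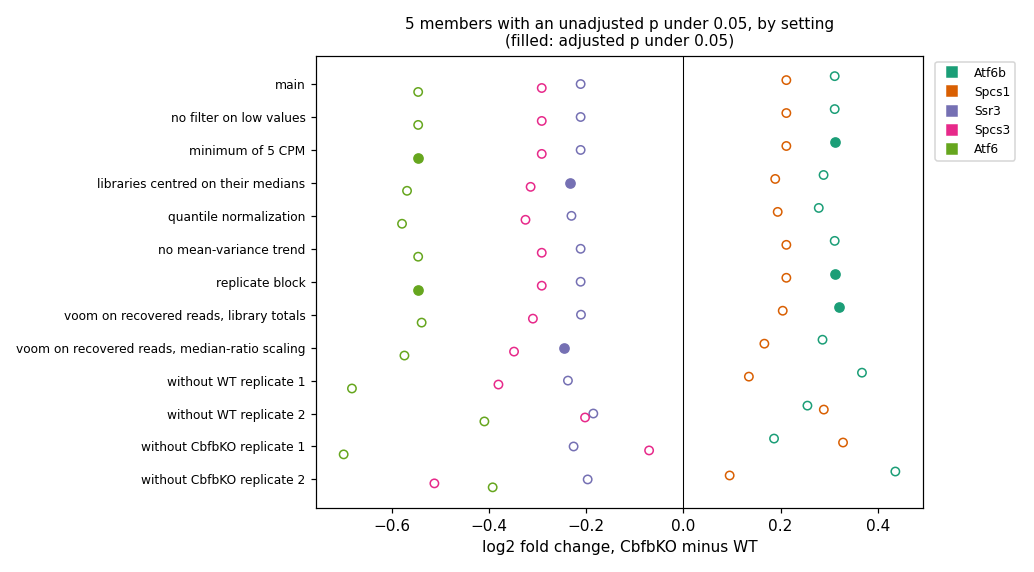
Log2 fold change, CbfbKO minus WT (horizontal axis), of the 5 genes with an unadjusted p-value under 0.05, under the test as reported (top) and 12 alternative settings (vertical axis); filled marks have an adjusted p-value under 0.05. The direction of each gene is the same in every setting shown, filled marks occur for Atf6b in 3 settings and for Atf6 and Ssr3 in 2 each, and Spcs1 and Spcs3 have none.

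The other genes of the pathway, a list of 96 that holds the ER heat-shock proteins and their cofactors, further redox and glycan enzymes, oligosaccharyltransferase, further ERAD and translocation genes and the outputs of PERK, was read from the same test. Of these, 93 were tested, 1 passed (Qsox1, higher) against 2.83% of all tested genes, and 12 (12.9%) had an unadjusted p-value under 0.05 in limma against 14.9%, and the median log2 fold change was 0.0050. QSOX1 is a secreted and Golgi-resident oxidase that makes disulfide bonds. Its gene (chromosome 1, 155776029 to 155812889, minus strand) had 172 and 134 reads in WT and 258 and 208 in CbfbKO, with levels of 5.68 and 5.35 log2 CPM in WT and 6.06 and 6.04 in CbfbKO. In CbfbKO it rose by 0.53 log2 units (SE 0.13, 95% interval from 0.28 to 0.79, limma adjusted p = 0.0145), higher in 2 of 2 CbfbKO libraries. Its exons overlap the antisense gene Gm37539. The call was lost in 6 of 12 alternatives, among them the omission of WT replicate 2 (log2 fold change 0.37). The others included the omission of CbfbKO replicate 1 (0.53) or CbfbKO replicate 2 (0.54) and the test without the mean-variance trend. There no gene at all was called, so these losses say nothing about Qsox1. Over the alternatives the adjusted p ranged from 0.000995 to 0.731.

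Hspa5, which encodes the central ER chaperone BiP and is the usual marker of ER stress, was the most abundant of the list, with 5588 and 5414 reads in WT and 6711 and 5122 in CbfbKO. Its levels were 10.68 and 10.67 log2 CPM in WT and 10.75 and 10.65 in CbfbKO, a log2 fold change of 0.023 with a fold interval from 0.944 to 1.09 (limma adjusted p = 0.888). Hsp90b1, the ER Hsp90, was at 10.46 and 10.47 log2 CPM in WT and 10.47 and 10.39 in CbfbKO (log2 fold change -0.036, limma adjusted p = 0.819). Its exons overlap 3 other genes, Gm15344, Gm25745 and 1810014B01Rik. Of the 10 genes of ER Hsp70, Hsp90 and their cofactors, 5 had positive and 5 negative values. In 3 (30%) the groups did not overlap, against 44.1% of all tested genes. The values ran from -0.59 for Dnajb9 (20 and 27 reads in WT, 20 and 12 in CbfbKO) to 0.21 for Dnajc10. Dnajc10 alone (10%) had an unadjusted p-value under 0.05 in limma (adjusted p = 0.189). On the PERK side 0 of 10 genes passed, and in 7 the groups did not overlap (2 higher, 5 lower), against 2.83% and 44.1% of all tested genes. Trib3, a target of ATF4 and CHOP, alone had an unadjusted p-value under 0.05 (14.9% of all tested genes), with 110 and 124 reads in WT and 168 and 150 in CbfbKO (log2 fold change 0.37, limma adjusted p = 0.176), and is named after its values were seen. Atf4, the factor translated when PERK is active, was at 9.68 and 9.70 log2 CPM in WT and 9.65 and 9.59 in CbfbKO (log2 fold change -0.069, limma adjusted p = 0.617). With a library left out, the value of Atf4 lay between -0.0996 and -0.039. Ddit3, the stress factor CHOP, had 122 and 147 reads in WT and 175 and 151 in CbfbKO, a log2 fold change of 0.21 with a fold interval from 0.951 to 1.40 (limma adjusted p = 0.519). It was 0.062 without WT replicate 1 and 0.35 without WT replicate 2.

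**Figure D4:**
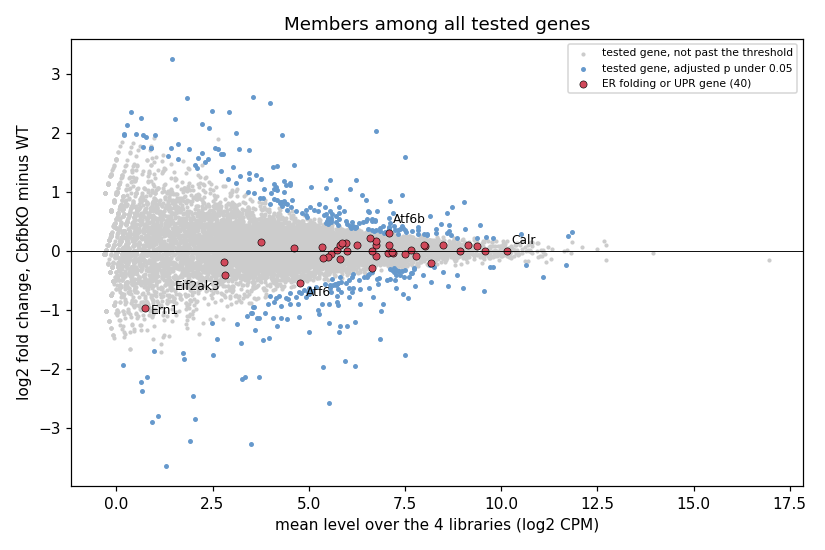
Log2 fold change, CbfbKO minus WT (vertical axis), against the mean level over the 4 libraries in log2 CPM (horizontal axis) for all 12207 tested genes; blue points have an adjusted p-value under 0.05 and red points are the 40 genes described. Red points from Calr down to Atf6b lie in the narrow band of abundant genes, and the value farthest from 0 is that of Ern1 (-0.97) at the left, where the spread of all genes is wide.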

How the data were processed

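The data are 3′ mRNA libraries (Lexogen QuantSeq) of MC38 cells. The authors trimmed reads with cutadapt 1.9, aligned them to mm10 with HISAT2 2.1.0 and counted them with featureCounts (2.0.1 in the submitters' processing notes). The paper's methods name another release of this counter. The deposited values are log2 CPM, with a prior count of 2 that the values imply. Annotation, use of strand and treatment of reads that match several genes are not given in the sources used here. Reads were recovered from the steps of the deposited values, and 100% of values in 3 libraries and 99.99% in WT replicate 2 lay within 0.1 of a whole number.

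The test was limma 3.58.1 (R 4.3.3) on the deposited log2 values across all 12207 genes with at least 0 in deposited log2 CPM, prior count included, in at least 2 libraries, with a mean-variance trend, two-sided, Benjamini-Hochberg adjusted, at a threshold of 0.05. An exact permutation of 2 against 2 libraries cannot go below p = 0.333. Voom, which the study used and which needs counts, was run on recovered reads as an alternative. The procedure was tested on simulated data. Alternatives were no filter, 5 CPM on the same scale, median centring, quantile normalization, no trend, the replicate block, voom with library totals or median ratios, and each library left out. Genes given in full were the sensors, the extremes of each role, every called gene, Hspa5, Hsp90b1, Ddit3 and Atf4. The genes and lists were chosen with earlier results of these data known. Positions are from GENCODE M21, promoters from RefSeq (Python 3.11.15, matplotlib 3.10.9). Fold changes of low genes are understated by the prior count, and intervals are unadjusted.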

Additional observations from a re-analysis of the deposited data

How the results depend on the processing

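Counts of the 40 genes past the threshold were 0 higher and 0 lower, also without the low-value filter, with quantile normalization and without either WT library. They were also 0 without the mean-variance trend and without either CbfbKO library (from 0 to 0 with a library left out), but there no gene at all was called, so these counts say nothing about the 40 genes. There was 1 higher (Atf6b) and 1 lower (Atf6) with a minimum of 5 CPM and with the replicate block, 1 higher (Atf6b) in voom with library totals, and 1 lower (Ssr3) with median centring and in voom with median ratios. With 5 CPM, 300 higher and 209 lower were called over all 9549 tested genes. Of 12207 genes, 320 higher and 215 lower were called with the replicate block, and 176 and 188 with median centring. In voom these counts were 258 and 196 with library totals and 175 and 236 with median ratios. The replicate block pairs libraries by number only. Deviations from the group means correlated at -0.0042 between libraries of the same number.

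Over all tested genes, 192 higher and 153 lower became 2 and 53 without the filter, 39 and 44 with quantile normalization, and 0 and 0 without the trend (911 and 550 at an unadjusted p-value under 0.05). There were 300 higher with 5 CPM, 320 higher with the replicate block, and 236 lower in voom with median ratios. Single libraries left out gave from 0 to 115 higher and from 0 to 86 lower, with 0 and 0 without either CbfbKO library. The summed CPM ratio of 1.02 was 1.00 without Rn45s.

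Log2 fold changes near 0 turned sign with scaling. With median centring they were -0.0015 (Xbp1), -0.016 (Canx), -0.022 (Calr) and -0.018 (Pdia6), with quantile normalization -0.0050 (Calr) and -0.015 (Pdia6), and in voom with median ratios -0.035 (Xbp1), -0.032 (Canx), -0.035 (Calr), -0.031 (Pdia6) and -0.0086 (Hspa5). With a library left out the ranges were -0.19 to 0.23 (Xbp1), -0.025 to 0.038 (Canx), -0.038 to 0.040 (Calr), -0.040 to 0.049 (Pdia6), -0.067 to 0.36 (Txndc11), -0.037 to 0.31 (Sel1l), -0.035 to 0.14 (Sdf2l1), -0.38 to 0.10 (Creld2), -0.33 to 0.096 (Syvn1), -0.025 to 0.071 (Hspa5) and -0.076 to 0.0048 (Hsp90b1). No other pseudocount was tried, the values being log2 already. Causes of these shifts were not tested. Depth limits Ern1, Eif2ak3 and Sec61g most, with at most 27 reads in any library.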

Other observations

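Ratios of reads between related genes were looked at after the values were seen and carry no test. Reads of Atf6b per read of Atf6 were 4.25 and 3.24 in the WT libraries and 6.64 and 6.94 in the CbfbKO libraries, without overlap. Spcs1 reads per Spcs3 read were 0.828 and 0.814 in WT and 1.25 and 1.08 in CbfbKO. Within TRAP, Ssr1 per Ssr3 was 0.724 and 0.722 in WT and 0.789 and 0.793 in CbfbKO, and Ssr2 per Ssr3 was 0.460 and 0.460 in WT and 0.536 and 0.523 in CbfbKO, whereas Ssr4 per Ssr3 overlapped between the groups. Such ratios do not depend on the library totals. Sec11a per Sec11c and Derl1 per Derl2 overlapped.

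Beside Qsox1, the genes of Prdx4 and Pdia5, which also serve disulfide formation, were higher in both CbfbKO libraries and short of the threshold. Prdx4 had 136 and 138 reads in WT and 201 and 190 in CbfbKO (log2 fold change 0.44, limma adjusted p = 0.0616). Pdia5 had 34 and 42 reads in WT and 77 and 55 in CbfbKO (log2 fold change 0.69, limma adjusted p = 0.112). Both were picked from the list of 14 further redox enzymes after their values were seen, and the median log2 fold change of that list was 0.040. It held 9 positive and 5 negative values, down to -0.099 for Ero1l. In 4 of the 14 (28.6%) the groups did not overlap, against 44.1% of all tested genes.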
